A study of Mus musculus with 12 samples.

Results

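Cask, Depdc5, Memo1 and Immp2l were 4 genes whose RNA was lower in livers of mice given a scrambled control antisense oligonucleotide (ASO) than in livers given vehicle. They were selected on the measured values, as having low p-values among the 4321 genes lower in the control ASO livers, out of 8846 genes tested. Each was found by its symbol through the transcript identifiers of the 12 liver RNA-seq libraries. The values of control ASO against vehicle therefore chose the genes and are given as a description, with no test. The ranking is not complete. Cask, Depdc5 and Memo1 held ranks 1, 2 and 3 by p among the lower genes, but Immp2l held rank 8.

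All 12 mice were of the hFIX-R29X strain, in which the mouse factor IX gene is missing and a minigene for human factor IX, stopped by a nonsense codon, runs from the human transthyretin promoter, mainly in hepatocytes. Each group had 4 livers from 2 females and 2 males. Mice were 8 to 14 weeks old and received 6 doses, 1 every 5 days, of DPBS (the saline vehicle), Control-GalNAc-ASO at 15 mg/kg or Upf3b-GalNAc-ASO at 10 mg/kg. Livers were taken 48 h after the last dose. The ASO groups thus differed in dose as well as in sequence, and these cannot be told apart. Total estimated counts per liver ran from 13277892 to 20387682.

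Both ASOs were gapmers, in which modified wings flank a DNA centre. Such an oligonucleotide pairs with its RNA, and RNase H1, a nuclease of DNA-RNA hybrids, cuts the paired RNA. Triantennary N-acetylgalactosamine (GalNAc) is taken up by the asialoglycoprotein receptor of hepatocytes. UPF3B, the target of the second ASO, takes part in nonsense-mediated mRNA decay. A scrambled ASO has the same chemistry with no intended target, so that it separates effects of the chemistry from effects of target loss. In bulk liver RNA, fewer cells of a type and less RNA per cell cannot be told apart.

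The ASO sequences are shown because they define the comparison, written 5′ to 3′ as the study's ASO table lists them for the unconjugated oligonucleotides. The stretch that pairs with the Upf3b-ASO in Upf3b is printed with them, at chrX:37091973-37091988 on the minus strand of GRCm38, in the 3′ UTR of the Upf3b-201 transcript.
Control ASO: ggccaatacgccgtca
Upf3b-ASO: ggatatagatgtaacg
Upf3b, site for the Upf3b-ASO: cgttacatctatatcc
Upf3b was the only gene of 8840 searched with an unbroken 16-base complement to the Upf3b-ASO in its annotated spliced transcripts. Upf3b itself, in CPM (estimated counts scaled to a common library total), measured 10.4, 9.38, 13.4 and 10.9 in the DPBS livers, 8.58, 9.56, 7.93 and 12 in the control ASO livers and 1.58, 0.651, 0.999 and 0.662 in the Upf3b-ASO livers. All 4 livers of the third group, labelled as given the Upf3b-ASO, were thus far below the others.

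The closest spliced sites of the 4 genes to the control ASO are shown in the same way, with bases that are not its complement in capitals. Only complementary bases count as paired, so G with T or U counts as unpaired.
Cask, chrX:13517855-13517870, minus strand, 3′ UTR: tgacTgAgtaAGgTcc
Depdc5, chr5:32877106-32877121, plus strand, coding sequence: GATcAgTAtattggcc
Memo1, chr17:74200206-74200221, minus strand, 3′ UTR: ACaAggcCtattggAc
Immp2l, across the junction of 2 exons between chr12:41024140-41024570, plus strand, 5′ UTR: CAGcggGAtTttggcc
Cask and Memo1 each paired with the control ASO at 11 of 16 bases, a match that 46.3% of the genes searched equalled or bettered. Depdc5 and Immp2l paired at 10 of 16 bases, as did 92.6% of the genes or more closely. Depdc5 had 5 such sites, and the one shown held its longest unbroken stretch, 8 bases, which 11.9% of the genes equalled or exceeded. Against the Upf3b-ASO, Depdc5 had the closest match of the 4, with 12 of 16 bases paired at chr5:32943996-32944011 in coding sequence, as close as in 9.82% of the genes. Cask, Memo1 and Immp2l paired with it at 10 of 16 bases, like 92.0% of the genes. The Memo1 site for the control ASO lies in Memo1-210 and outside Memo1-201, the only Memo1 transcript quantified. Introns were not searched, and a match describes letters only.

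Cask encodes a membrane-associated guanylate kinase, a scaffold protein at cell junctions and synapses. The gene (ENSMUSG00000031012) lies on chrX:13517080-13851367 on the minus strand and spans 334.3 kb. Its level was 34.1, 34.2, 44.7 and 45.7 CPM in the DPBS livers. In the control ASO livers it was 18.4, 18.2, 16.9 and 17.3 CPM, and in the Upf3b-ASO livers 11, 9.28, 13.1 and 9.4 CPM. The 3 groups did not overlap, and the order was DPBS, control ASO, Upf3b-ASO. Group means were 39.7 ± 6.38, 17.7 ± 0.745 and 10.7 ± 1.77 CPM (SD, n = 4 each), so the control ASO livers held 44.6% and the Upf3b-ASO livers 27.0% of the DPBS mean.

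Depdc5 encodes a subunit of GATOR1, the complex that restrains the growth kinase mTORC1 when amino acids are scarce. The gene (ENSMUSG00000037426) lies on chr5:32863701-32994236 on the plus strand and spans 130.5 kb. The DPBS livers had 19.3, 16.4, 19.0 and 18.5 CPM, the control ASO livers 11.1, 11.3, 6.92 and 8.54 CPM, and the Upf3b-ASO livers 16.7, 18.4, 16.9 and 17.1 CPM. Control ASO livers lay below all others, and DPBS and Upf3b-ASO livers overlapped. Means were 18.3 ± 1.32, 9.45 ± 2.1 and 17.3 ± 0.777 CPM (SD, n = 4 each), which put the control ASO livers at 51.6% and the Upf3b-ASO livers at 94.2% of the DPBS mean.

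Memo1 encodes a cytosolic protein described as a mediator of cell motility downstream of ErbB2. The gene (ENSMUSG00000058704) lies on chr17:74199036-74295521 on the minus strand and spans 96.5 kb. Levels were 26.7, 27.0, 26.6 and 30.6 CPM with DPBS, 18.7, 17.9, 16.6 and 20.1 CPM with the control ASO and 19.6, 21.3, 24.8 and 20.4 CPM with the Upf3b-ASO. Both ASO groups lay below every DPBS liver and overlapped each other. The means were 27.7 ± 1.93, 18.3 ± 1.47 and 21.5 ± 2.32 CPM (SD, n = 4 each), or 66.0% and 77.6% of the DPBS mean in the control ASO and Upf3b-ASO livers.

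Immp2l encodes a catalytic subunit of the mitochondrial inner membrane peptidase, which removes sorting signals from proteins of the intermembrane space. The gene (ENSMUSG00000056899) lies on chr12:41024090-41955588 on the plus strand and spans 931.5 kb, longer than 99.9% of the genes tested. It measured 18.7, 20.1, 16.2 and 19.4 CPM in the DPBS livers, 11.7, 15.1, 7.42 and 9.86 CPM in the control ASO livers and 2.94, 2.66, 2.46 and 1.52 CPM in the Upf3b-ASO livers. No 2 groups overlapped, and the Upf3b-ASO livers rested on 23 to 49 estimated counts each. Means were 18.6 ± 1.69, 11 ± 3.24 and 2.4 ± 0.614 CPM (SD, n = 4 each), so that 59.2% of the DPBS mean was left with the control ASO and 12.9% with the Upf3b-ASO.

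**Figure D1:**
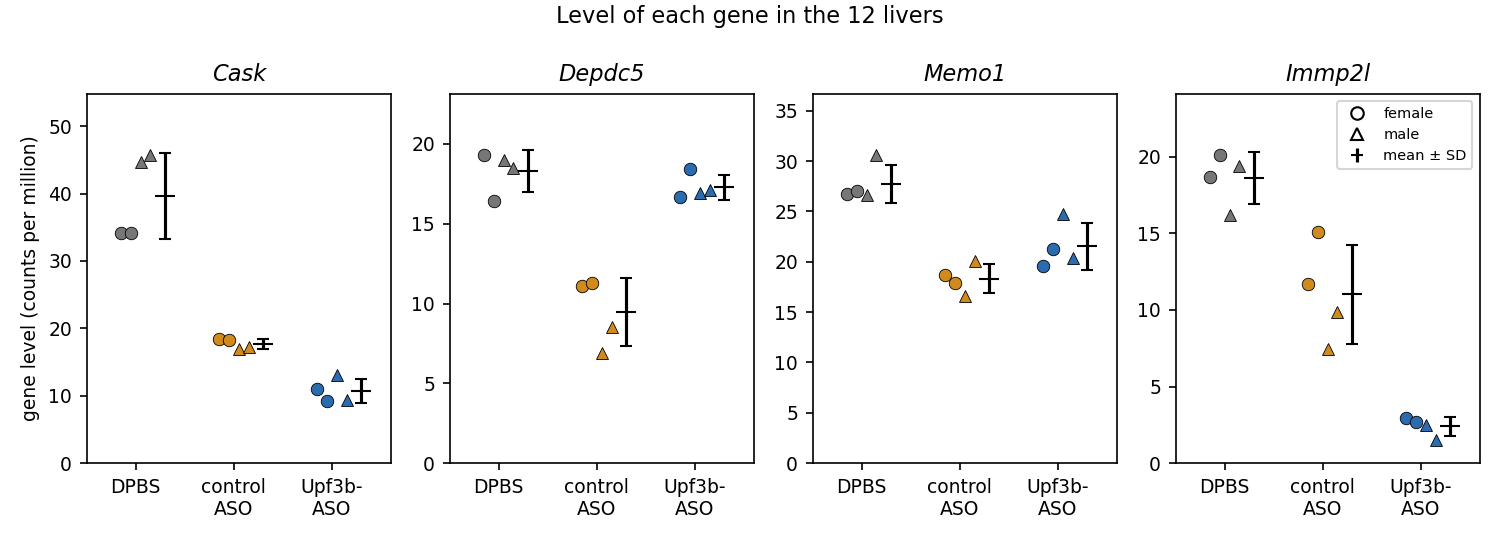
Level of Cask, Depdc5, Memo1 and Immp2l in CPM in each of the 12 livers, by group (circles, females; triangles, males; bars, mean ± SD of 4 livers). Cask and Immp2l stepped down from DPBS to control ASO to Upf3b-ASO, Depdc5 was low in the control ASO livers with the other groups overlapping, and Memo1 was below DPBS in both ASO groups.

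Per length, in TPM (transcripts scaled by their length to the same library total), the DPBS livers held 80.9 ± 15.7 of Immp2l, 23.9 ± 3.02 of Memo1, 21 ± 2.47 of Cask and 10.2 ± 1.3 of Depdc5 (SD, n = 4 each). Memo1 and Cask did not differ beyond that spread. Of the Immp2l value, 54.3 ± 14.6 TPM lay on Immp2l-201, a fragment of 239 bases. In CPM, Immp2l was below Memo1 and Cask in the DPBS livers. All 4 genes passed the filter of TPM of at least 5 in at least 4 livers, and the 4 DPBS livers were past it for each. Memo1 and Immp2l were past it in all 12 livers. Cask missed it in 1 Upf3b-ASO liver and Depdc5 in 2 control ASO livers. In Upf3b-ASO replicate 4, Immp2l passed at 5.83 TPM on 23 estimated counts, with 4.71 TPM on the 347-base Immp2l-204. On the TPM scale, control ASO and DPBS livers stayed apart for Cask and Memo1 but overlapped for Depdc5, with 10.7 TPM in control ASO replicate 1, and for Immp2l, with 65.7 TPM in replicate 2.

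For control ASO against DPBS, the values that chose the genes were log2 fold changes of -1.15 ± 0.13 (SE) for Cask, -0.96 ± 0.13 for Depdc5, -0.60 ± 0.10 for Memo1 and -0.79 ± 0.17 for Immp2l in edgeR's quasi-likelihood fit. No call is read from them, since the 4 were picked by p in this comparison, in which 0.0113% of all genes tested were lower at an adjusted p under 0.05. All 4 had control ASO livers entirely below DPBS livers, as did 1.66% of all genes, a separation that the choice by p favours and that is given as a description. Of the 4, Immp2l had the largest spread between control ASO livers, with a coefficient of variation of 29.4% against 4.21% for Cask. Around the edge of the choice, Pnp, Hyou1, Tcf20 and Ephx1 ranked between Memo1 and Immp2l without being among the 4. Their log2 fold changes were -0.44 ± 0.08, -0.78 ± 0.16, -0.40 ± 0.08 and -0.45 ± 0.09 (SE). Just after Immp2l came Ddah1 at -0.67 ± 0.15, Ext1 at -0.39 ± 0.08 and Gm9531 at -0.37 ± 0.08.

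Control ASO replicates 1 and 3 stood apart from the other livers in marker genes of other cell types or states. Summed TPM of 6 erythroid markers was 10300 in replicate 1, against 684 to 1370 in DPBS and 1200 to 1400 in Upf3b-ASO livers, and that of 5 neutrophil markers was 163 in replicate 1 and 23.6 in replicate 3, against 1.93 to 4.93 and 1.5 to 6.88. Summed TPM of 10 acute phase genes was 38900 in replicate 3, against 4200 to 6940 in DPBS and 3910 to 5210 in Upf3b-ASO livers. Hepatocyte markers overlapped between groups, at 45200 to 91600 in DPBS, 45700 to 87800 in control ASO and 33700 to 78600 in Upf3b-ASO livers, over 8 of the 9 genes listed. The same held for 8 Kupffer cell markers (193 to 328, 194 to 576 and 232 to 417), 7 endothelial (138 to 203, 85.9 to 218 and 130 to 197) and 7 stellate cell markers (121 to 245, 110 to 264 and 105 to 199). Control ASO replicate 1 held the highest of these sums (576, 218 and 264) and replicate 3 the lowest endothelial sum (85.9). Each of these lay outside the DPBS and Upf3b-ASO ranges. The 5 cholangiocyte markers summed to at most 34.6 TPM and the 6 lymphocyte markers to at most 13.4 TPM in any liver, with overlapping groups. No marker of any of these lists was at 0 in every liver. Replicate 3 had the lowest control ASO value of Cask, Depdc5, Memo1 and Immp2l alike, and the part of these differences in the results was not tested. With both livers left out, the log2 fold changes against DPBS were -1.14 for Cask, -0.89 for Depdc5, -0.55 for Memo1 and -0.59 for Immp2l.

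The Upf3b-ASO livers show how the same genes stood under a second ASO of the same chemistry. Against DPBS, 3 of the 4 genes were lower at an adjusted p under 0.05, where 5.36% of all genes were, and none was higher, where 3.57% were. Immp2l fell by 2.98 ± 0.19 (SE) on the log2 scale with an adjusted p of 1.2e-05 in edgeR, and Cask fell by 1.89 ± 0.13 with an adjusted p of 2.2e-05. Memo1 fell by 0.37 ± 0.10 with an adjusted p of 0.038, and that call was fragile. It was lost in edgeR with the replicate number as a block (adjusted p of 0.078), without the sex covariate (0.056) and without the filter (0.2). The call was also lost with limma at pseudocounts of 1 and 0.1 (adjusted p of 0.23 and 0.24). Leaving out any of the 4 DPBS livers, control ASO replicate 2 or Upf3b-ASO replicates 1, 2 or 4 in turn lost it too. When single livers were left out, log2 fold changes were -0.44 to -0.32. Depdc5 differed by -0.09 ± 0.13 (adjusted p of 0.75 in edgeR), with a 95% interval of -0.34 to 0.17, which leaves room for a small difference either way. In 12% of all genes the Upf3b-ASO livers lay entirely below the DPBS livers, as for Cask, Memo1 and Immp2l. The DPBS livers of this comparison are those that chose the genes, so these falls are not independent of the choice.

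Against the control ASO livers, 2 of the 4 genes were lower and 1 was higher, where 5.95% of all genes were lower and 4.34% higher. Immp2l fell by 2.19 ± 0.19 (SE) on the log2 scale (adjusted p of 9.6e-05 in edgeR) and Cask by 0.73 ± 0.13 (adjusted p of 0.006). Both were thus below a group that had been chosen for being low. Their Upf3b-ASO livers lay entirely below the control ASO livers, as in 7.69% of all genes, and those of Depdc5 entirely above, as in 7.74%. Depdc5 rose by 0.88 ± 0.13 (adjusted p of 0.0027), or 1.84-fold. Memo1 differed by 0.23 ± 0.10 and did not pass (adjusted p of 0.15), with a 95% interval of 0.04 to 0.42 that is not adjusted for the genes tested. The rise of Depdc5 starts from the control ASO livers that picked it and is not independent of that choice. Without control ASO livers 1 and 3, the values for Immp2l, Cask and Depdc5 were -2.37, -0.74 and 0.81 and the same 3 genes passed. On log2(TPM + 1) with limma, Immp2l alone passed, and Cask and Depdc5 measured -0.55 and 0.90.

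**Figure D2:**
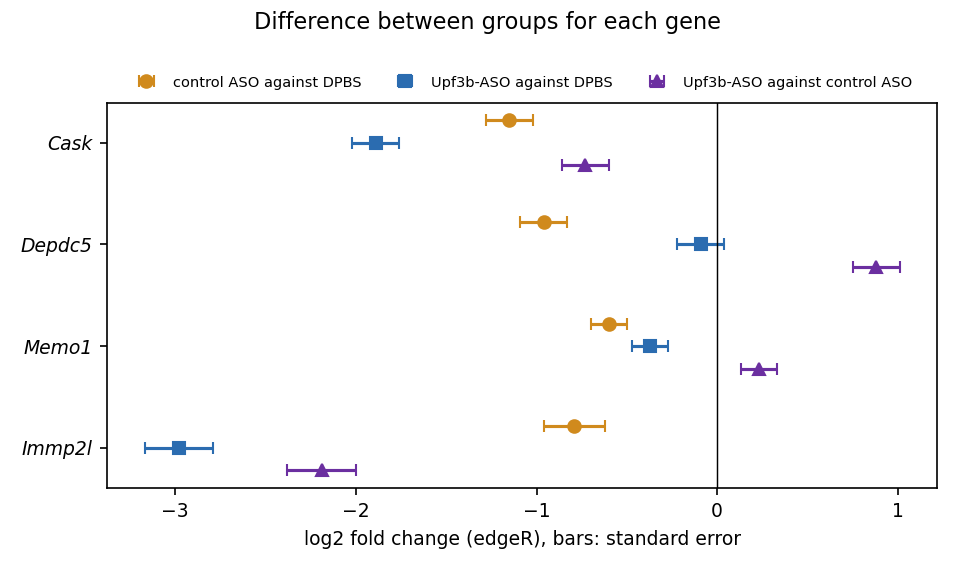
Log2 fold change of each gene from edgeR (horizontal axis; bars, standard error) in control ASO against DPBS (circles), Upf3b-ASO against DPBS (squares) and Upf3b-ASO against control ASO (triangles). The first comparison chose the genes; Depdc5 sits at -0.09 in Upf3b-ASO against DPBS, while Immp2l sits at -2.98.

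Males and females were compared over all 12 livers with group in the fit. None of the 4 genes passed an adjusted p of 0.05 in edgeR, where 10.0% of all genes did; Immp2l alone had an unadjusted p under 0.05, with a log2 difference of -0.40 ± 0.14 (SE) in males and an adjusted p of 0.12. DESeq2's Wald test also called none, and limma on log2(TPM + 1) called Immp2l, at -0.93 where the median of all genes was -0.29. Within groups, Cask was higher in the 2 DPBS males, with a mean of 45.2 CPM, than in the 2 females, with 34.2 CPM. The control ASO livers showed 17.1 CPM in males and 18.3 CPM in females. Depdc5 and Immp2l were lower in control ASO males (7.73 and 8.64 CPM) than in females (11.2 and 13.4 CPM). The sex by treatment interaction for Upf3b-ASO against control ASO passed for none of the 4 and for no gene of the 8846, with 647 genes, Depdc5 among them, at an unadjusted p under 0.05 in edgeR. For Depdc5 the interaction was 0.48 ± 0.20 on the log2 scale (adjusted p of 0.59), and 0.34 ± 0.18 without control ASO replicate 3.

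At the level of transcripts, Immp2l was read from 5. Immp2l-203 and Immp2l-202 are protein-coding forms that reach to the far end of the gene. Immp2l-203 measured 16.2 ± 3.76 TPM with DPBS, 8.99 ± 2.98 with the control ASO and 1.11 ± 0.334 with the Upf3b-ASO (SD, n = 4 each). Immp2l-202 measured 3.09 ± 0.806 and 1.49 ± 1.03 TPM in the first 2 groups and was listed at 0 in 3 of the 4 Upf3b-ASO livers. Immp2l-201, a coding fragment of 239 bases and 2 exons, held most of the gene's TPM in DPBS livers, 54.3 ± 14.6, against 31.7 ± 15.6 under the control ASO and 5.5 ± 6.79 under the Upf3b-ASO. Its effective length was 79.3 bases, so few counts carry a high TPM.

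The retained-intron forms of Immp2l, which start at the 5′ end of the gene and end by position 41110957 of the chromosome, had no such order. Immp2l-204 measured 6.55 ± 4.55 TPM with DPBS, 5.37 ± 5.02 with the control ASO and 6.88 ± 4.18 with the Upf3b-ASO. Immp2l-205 measured 0.756 ± 0.293, 0.632 ± 0.187 and 0.692 ± 0.247 TPM (SD, n = 4 each). Their ranges overlapped in all 3 groups, at 1.85 to 29.4 estimated counts per liver for Immp2l-204. Together the 2 forms made up 9.69% of the gene's TPM in DPBS livers, 12% with the control ASO and 60.9% with the Upf3b-ASO, each a mean of 4 livers. The share varied widely between Upf3b-ASO livers. Immp2l-204 held 5.74 of the gene's 23.3 TPM in replicate 1, on 41 estimated counts for the gene. In replicate 4 it held 4.71 of 5.83 TPM, on 23 counts. The coding forms summed to 73.6 ± 17.7, 42.2 ± 18.8 and 6.66 ± 6.95 TPM. Reads from the shared 5′ exons are divided among forms by the quantifier, so these shares are estimates.

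**Figure D3:**
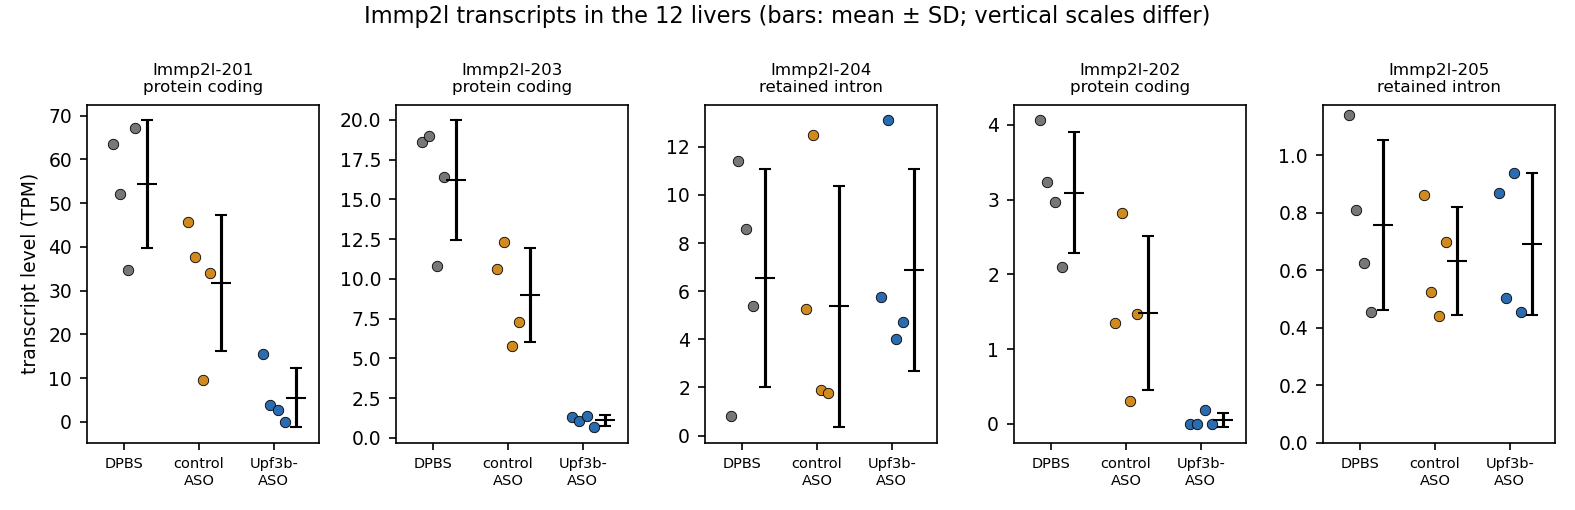
TPM of the 5 quantified Immp2l transcripts in each of the 12 livers, by group (points, livers; bars, mean ± SD of 4; vertical scales differ between panels). The means of the 3 coding transcripts step down across the groups and the 2 retained-intron transcripts, with means of 5.37 to 6.88 and 0.632 to 0.756 TPM, overlap in all 3.

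Cask was read from 12 transcripts, 9 of them at a mean of at least 0.5 TPM. All 6 most abundant ones had lower means in both ASO groups than in DPBS livers. Among the less abundant of the 9, 1 had a higher mean with the Upf3b-ASO (1.0 ± 1.73 TPM) than with DPBS (0.612 ± 0.844 TPM). It held at most 19.4 estimated counts in a liver. The 25-exon Cask-201 measured 3.02 ± 0.283, 1.45 ± 0.909 and 0.531 ± 0.134 TPM with DPBS, the control ASO and the Upf3b-ASO, and the 24-exon Cask-212 measured 2.27 ± 0.308, 0.995 ± 0.669 and 0.458 ± 0.32 TPM (SD, n = 4 each). Cask-209, a fragment of 8 exons, went from 4.55 ± 0.989 to 1.76 ± 0.53 and 1.07 ± 0.555 TPM. Cask-206 stood at 2.39 ± 0.93, 1.06 ± 0.727 and 0.105 ± 0.126 TPM. The shorter Cask-205 and Cask-211 held at most 16.1 and 2.52 estimated counts in a liver, too few to rank the groups.

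Depdc5 was spread over 19 transcripts, of which 6 reached a mean of 0.5 TPM. The 41-exon Depdc5-205, spanning most of the gene, measured 1.59 ± 0.604 TPM with DPBS, 0.805 ± 0.535 with the control ASO and 1.68 ± 0.707 with the Upf3b-ASO. Depdc5-210 covers the 3′ part and measured 0.933 ± 0.651, 0.266 ± 0.299 and 1.15 ± 0.523 TPM (SD, n = 4 each). Depdc5-203, a 10-exon 5′ form, had low means in both ASO groups, with 1.59 ± 1.09, 0.361 ± 0.463 and 0.306 ± 0.611 TPM, on at most 19.3 estimated counts in a liver. Of the other 3 named, Depdc5-215, the most abundant, had higher means in both ASO groups than with DPBS. It measured 1.7 ± 1.14, 2.35 ± 2.72 and 3.13 ± 1.72 TPM, on at most 13.7 estimated counts in a liver. Depdc5-218 measured 0.976 ± 1.36, 0.83 ± 0.63 and 1.65 ± 1.15 TPM. Depdc5-216 measured 0.695 ± 0.787, 0.349 ± 0.201 and 1.1 ± 0.478 TPM (SD, n = 4 each). All 6 overlapped between all groups, with 1 exception. Depdc5-216 was lower in every control ASO liver (0.0848 to 0.571 TPM) than in any Upf3b-ASO liver (0.735 to 1.8 TPM). Depdc5-216 and Depdc5-218 are annotated as nonsense-mediated decay forms. The 3 Depdc5 forms of that kind summed to 1.71 ± 1.23, 1.2 ± 0.588 and 2.75 ± 1.51 TPM. That was 18.1%, 20.4% and 23.3% of the gene's TPM. Memo1 was read from 1 transcript, Memo1-201, at 23.9 ± 3.02, 14.9 ± 3.16 and 18.2 ± 2.51 TPM in the same order.

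The share of a gene's TPM on its most abundant transcript was tested for Cask, Depdc5 and Immp2l in the Upf3b-ASO livers against each other group, as 6 two-sided exact permutation tests whose smallest possible p was 0.029. None passed after adjustment over the 6, where a single test at that smallest p would reach only 0.17 and at least 4 would have to be there to pass. Immp2l-201 held 66.4% of the gene's TPM with DPBS, 64.3% with the control ASO and 29.1% with the Upf3b-ASO. The difference of -35.2 percentage points from control ASO had an exact permutation p of 0.086, adjusted to 0.26, and that of -37.4 points from DPBS had the same values. In the Upf3b-ASO livers this share ran from 0 to 66.0%. Cask-209 held 21.8% with DPBS and 20.6% with the Upf3b-ASO, and Depdc5-215 held 16.4% and 28.9%, with adjusted exact permutation p of 0.57 to 0.97.

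All 4 genes were long. Their spans exceeded those of 88.5% (Memo1) to 99.9% (Immp2l) of the genes tested, and their mean CPM exceeded that of 17.1% (Immp2l) to 41.0% (Cask). By span, the median log2 fold change of control ASO against DPBS was 0.02 over 4121 genes under 20 kb, 0.00 from 20 to 100 kb, -0.03 from 100 to 300 kb and -0.11 over 135 genes of 300 kb or more. For Upf3b-ASO against DPBS the medians were 0.05, -0.01, -0.18 and -0.53, and 46.7% of the genes of 300 kb or more were lower at an adjusted p under 0.05. Cask and Immp2l belong to that longest class. In Upf3b-ASO against DPBS, which shares the DPBS livers that helped to choose them, they stood at -1.89 and -2.98, and Depdc5, from the 100 to 300 kb class, at -0.09. Their values in control ASO against DPBS were fixed as low by the choice and are not set against the classes.

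**Figure D4:**
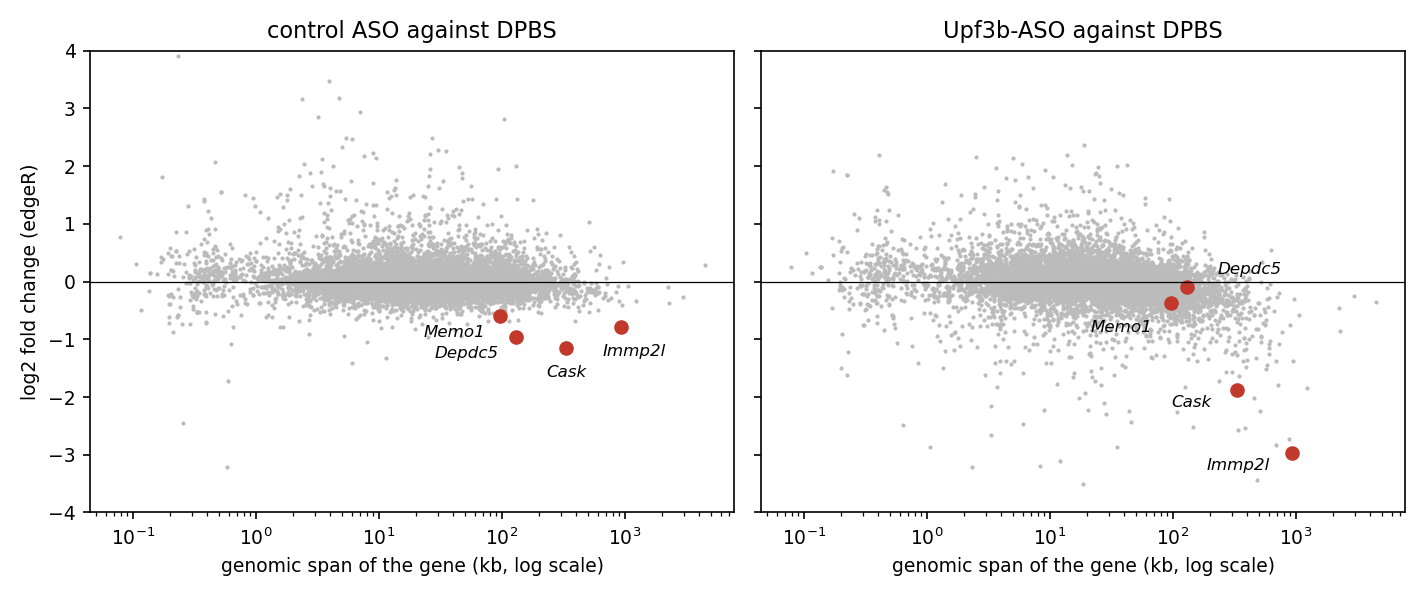
Log2 fold change from edgeR against genomic span on a log axis for all tested genes (grey) with the 4 genes in red, in control ASO against DPBS (left) and Upf3b-ASO against DPBS (right). Genes beyond 4 on either side are not drawn (6 at left and 5 at right); Cask and Immp2l sit lower at right than at left, and Depdc5 sits near 0 at right.

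The neighbours of the 4 genes were chosen by position. Ddx3x, nearest to Cask among tested genes and 223 kb away, had a log2 fold change of 0.18 ± 0.20 (SE) in control ASO against DPBS. Prr14l and Ywhah, which flank Depdc5 at 9.45 and 24.6 kb, measured -0.21 ± 0.08 and 0.07 ± 0.09, and Dpy30, 3.95 kb from Memo1, measured -0.08 ± 0.14. Dock4 lies 177 kb from Immp2l, spans 400.9 kb and measured -0.19 ± 0.17 in control ASO against DPBS. In Upf3b-ASO against DPBS it fell by 1.35 ± 0.17 (adjusted p of 0.00088 in edgeR). Lrrn3, which lies within Immp2l on the opposite strand, was below the filter at 2.73 ± 0.569 TPM with DPBS, 1.84 ± 1.14 with the control ASO and 0.985 ± 0.636 with the Upf3b-ASO. Gpr34 and Gpr82, within Cask on the opposite strand, were at or below 0.177 TPM on average in every group.

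The genes most like each of the 4 were ranked by Pearson r of log2 CPM over the 12 livers, which share the group differences. Immp2l was most like Cpq (r = 0.989), Tcf20 (0.983) and Mkln1 (0.98). Cpq, a gene of 511.4 kb for a secreted peptidase, averaged 64.6, 44.6 and 13.5 CPM in the 3 groups in the same order. Cask was most like Snd1 (0.962), Cdkal1 (0.945) and Trp53inp2 (0.943), the first 2 of which span 460.0 and 663.9 kb. Depdc5 was most like Trmt10b (0.895), Apoo-ps (0.891) and Ash2l (0.878), and Memo1 most like Mars (0.885), Canx (0.863) and Etnk1 (0.843). Apoo-ps is a pseudogene whose reads may be shared with its parent. Among the 4 genes, r was 0.89 for Cask with Immp2l, 0.74 for Depdc5 with Memo1 and 0.68 for Cask with Memo1. It was 0.36 for Memo1 with Immp2l, 0.2 for Cask with Depdc5 and -0.11 for Depdc5 with Immp2l. All 4 were chosen as low in the same control ASO livers against the same DPBS livers, so these values are not independent of the choice.

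Other genes of the pathways of the 4 were taken from lists. In control ASO against DPBS no other member of any of the 5 lists passed in edgeR. In that comparison 1 of all 8846 genes tested passed (0.0113%), so this absence says nothing particular about the lists. The list for Depdc5 covered amino acid sensing by mTORC1 (GATOR1, GATOR2, KICSTOR, Rag, Ragulator and folliculin components). It also held the sestrins (Sesn1, Sesn2 and Sesn3), Mtor, Rptor, Akt1s1, Deptor, Tsc1, Tsc2 and Rheb. Of its 26 tested genes beside Depdc5, 2 (7.69%) were lower in Upf3b-ASO than in control ASO livers. None was higher, and both shares were near the 5.95% and 4.34% of all genes. Fnip1 fell by 0.94 ± 0.19 (SE; adjusted p of 0.01 in edgeR) and Fnip2 by 0.63 ± 0.13 (adjusted p of 0.014), both partners of folliculin. Against DPBS only Fnip2 passed, at -0.52 ± 0.13. That was 3.85% of the list, where 5.36% of all genes were lower and 3.57% higher. The median of the 26 was -0.05 against control ASO and 0.01 against DPBS, beside -0.02 and 0.00 for all genes.

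Of 17 tested partners or relatives of Cask, 3 were lower and 1 higher against control ASO, and 4 lower and 1 higher against DPBS. Of all genes, 5.95% were lower and 4.34% higher in the first comparison, and 5.36% and 3.57% in the second. The guanylate kinase scaffold genes Magi3 and Mpp6 fell by 0.82 ± 0.10 and 0.69 ± 0.09 (SE) against DPBS, with adjusted p of 0.00059 and 0.00088 in edgeR. Magi1, which spans 608.5 kb, fell by 1.14 ± 0.20 (adjusted p of 0.0064), and Sdc2, a cell surface proteoglycan gene, by 0.51 ± 0.10 (adjusted p of 0.012). The median of the 17 was -0.15 against DPBS. Between sexes, Sdc2 was lower in males, with a log2 difference of -0.35 ± 0.08.

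Of 17 other mitochondrial peptidases and proteases tested beside Immp2l, 2 were higher and none lower against control ASO, and none passed against DPBS. These 2 made up 11.8% of the list, where 4.34% of all genes were higher and 5.95% lower. Against DPBS, 5.36% of all genes were lower and 3.57% higher, so that none in a list of 17 is near those shares. Mipep, the mitochondrial intermediate peptidase, rose by 0.47 ± 0.13 (SE; adjusted p of 0.041 in edgeR) and Afg3l1 by 0.35 ± 0.10 (adjusted p of 0.042). The 5 genes listed as substrates of inner membrane peptidases, Gpd2, Cyc1, Diablo, Cyb5r3 and mt-Co2, passed in neither comparison. Their log2 fold changes were -0.19 to 0.30 against control ASO. At the shares of all genes, 5 genes are too few to read a result from this. Whether this peptidase processes each of these proteins in mouse liver was not examined. Of 10 genes tested beside Memo1 in ErbB receptor signalling, Diaph1 alone passed, with -0.35 ± 0.10 against control ASO (adjusted p of 0.046 in edgeR). That was 10.0% of the list, where 5.95% of all genes were lower. None passed against DPBS, where 5.36% of all genes were lower and 3.57% higher. Egfr was higher in males by 1.05 ± 0.24 (adjusted p of 0.02).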

How the data were processed

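Liver total RNA of 12 mice was sequenced from Illumina TruSeq libraries on a HiSeq2500. The authors quantified reads with Salmon 0.7.2 against Ensembl 81 cDNA (GRCm38) and deposited, per transcript, estimated counts and TPM, which is scaled to transcript length. Transcripts were joined to genes of GENCODE M21 (98.1% of 92468) and summed, and estimated counts were rounded. Genes with TPM of at least 5 in at least 4 livers were fitted with edgeR 4.0.16 (TMM, quasi-likelihood, group and sex) with Benjamini-Hochberg adjustment over all 8846, after a check on simulated data. The members and lists were chosen with earlier results of these data known. The genes ranked among or next after the members by p, transcripts at a mean of at least 0.5 TPM (at most 6 per gene), called list genes (at most 4 per list and comparison, by p) and the 3 genes of highest r per member were named, except that values of some called list genes are not reported here. Same-numbered livers deviated together (r of 0.20 or more in all 12 pairs), but a number also gives the sex, which the fit holds, and within sex r ran from -0.11 to 0.18. No source used here ties same-numbered mice to a litter or batch. ASO sites were sought on the sense strand of spliced transcripts, without a genome. Alternatives used DESeq2 1.42.0, limma 3.58.1 on log2 TPM with a pseudocount of 1 or 0.1, other filters, covariates and sets of livers. The SE of a fold change is its absolute log2 value divided by the square root of edgeR's F statistic, which includes the spread between livers. Intervals of fold changes are normal 95% limits from that SE. They are narrower than limits from the degrees of freedom of the test.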

Additional observations from a re-analysis of the deposited data

Results flagged for a closer look

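Memo1 measured 30.6 CPM in DPBS replicate 4, apart from the other 3 DPBS livers at 26.6 to 27.0 CPM. The gap made up 0.89 of the range of the group, past the limit of Dixon's test. It was the only such liver in 21 groups of 4 examined, where chance gives about 1 in 20. Without that liver the log2 fold change of Memo1 was -0.56 in control ASO against DPBS and -0.32 in Upf3b-ASO against DPBS.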

How the results depend on the processing

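The fold changes of control ASO against DPBS kept their sign in each gene under all alternatives and moved by less than the spread between replicates, but the rank by p of Depdc5 among lower genes ran from 2 to 84 and that of Immp2l from 4 to 97, the highest of each with limma. Against control ASO, 3 of the 4 genes passed under 19 of 22 alternatives, and 1 passed, Immp2l, with limma at either pseudocount and under the filter of TPM of at least 5 in all 12 livers, which left only Immp2l and Memo1 to test. Leaving out single livers gave 3 each time. Against DPBS, 2 or 3 genes passed under every alternative, and the fold change of Depdc5 turned to 0.13 and 0.15 with limma at pseudocounts of 1 and 0.1. Between sexes, limma called 1 gene at either pseudocount, Immp2l, and turned Cask to -0.19 and -0.22 and Memo1 to -0.23 and -0.24, while the median of all genes moved to -0.29 and -0.31, so that neither was lower relative to it. The interaction of Immp2l went from 0.14 to -0.04 without control ASO replicate 3. The cause of the limma differences was not tested. The replicate block, which treats livers of 1 number as a pairing, left 3 genes called against control ASO and 2 against DPBS, where Memo1 was lost at an adjusted p of 0.078, and changed no other call of these 4 genes in those 2 comparisons. In control ASO against DPBS, over all genes, 1 passed in edgeR, 0 with the block or with only the 2 groups, 0 to 5 with single livers left out (5 without control ASO replicate 3), 15 without control ASO livers 1 and 3, 43 with DESeq2's Wald test and 0 with limma. As a share of estimated counts in place of TPM, the difference of Immp2l-201 was -7.2 points in both comparisons, and the paired exact p of the TPM shares ran from 0.12 to 1.0. With the longest unbroken stretch as the measure, the percent of genes matching the control ASO as well was 52.3 for Cask and Memo1, 11.9 for Depdc5 and 92.0 for Immp2l, and for the Upf3b-ASO 67.4, 29.6 and 94.1 in that order. Matches over whole gene bodies were not run. Leaving out control ASO livers 1 and 3 together was chosen after seeing the data. Depth limits Immp2l most, at 23 to 49 estimated counts per Upf3b-ASO liver, and single transcripts of Depdc5.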
